A study of Homo sapiens with 6 samples.

Results

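The genes described here encode the enzymes that carry glucose to lactate, the kinases that set the pace of glycolysis or close the route of pyruvate into mitochondria, and the membrane carriers that bring glucose in and take lactate out. They were chosen by name from the deposited table: 30 symbols were listed, all 30 were found among its 52408 genes, and each matched 1 row. RNA was sequenced from HepG2, an established human liver cancer line. Cells received 50 µM ellagic acid (EA), a plant polyphenol, or an equal volume of its solvent, dimethyl sulfoxide (DMSO), and RNA was taken after 24 h. Each treatment had 3 libraries. The labels do not state that they came from separate cultures, so every p-value rests on a library-to-library spread that may be technical.

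Glycolysis splits glucose into pyruvate in the cytosol, and lactate dehydrogenase then turns pyruvate into lactate, which restores the cofactor that glycolysis consumes. Most steps have several isoenzymes encoded by separate genes: hepatocytes are known for a set that serves glucose storage and release, whereas tumours and cells short of oxygen are known for another set that favours fast glucose use. Many genes of the latter set are textbook targets of hypoxia-inducible factors (HIFs). These transcription factors bind short DNA words with the core ACGTG or GCGTG.

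Gene-assigned reads numbered 22987425 to 25973621 per DMSO library and 15738089 to 19202292 per EA library, so all EA libraries were shallower. A count of 3 reads, the upper limit that 0 reads allows, corresponded to 0.116 to 0.191 CPM. CPM is a gene's read count divided by the library's total after TMM scaling (trimmed mean of M-values), so a level is always relative to the rest of the library. In bulk RNA, fewer cells of a type and less RNA per cell cannot be told apart. All 16 hepatocyte markers examined were read in both groups, and 15 were lower and 1 higher with EA. Their summed level was 56185 to 59281 CPM in DMSO and 14257 to 14839 in EA. Lists of markers of other cell types moved as well. The 6 leukocyte markers summed to 1761 to 1841 CPM in DMSO and 293 to 357 in EA, mostly from LYZ; CD14 fell 7.35-fold, CSF1R rose 16.2-fold, and PTPRC and CD3E had 0 reads in all 6 libraries. The 8 fibroblast markers summed to 16.7 to 17.8 CPM in DMSO and 5.09 to 7.13 in EA, mostly from PDGFRB, with COL1A2 and DCN at 0 reads. The 4 endothelial markers summed to 2.32 to 2.44 CPM in DMSO and 3.34 to 4.42 in EA, with VWF higher and CDH5 lower. KRT5 had 0 reads, while the 5 keratinocyte markers summed to at most 0.0870 CPM in DMSO and 7.41 to 9.62 in EA, mostly from KRT14. The part of these shifts in the results below was not tested.

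The summed level of the 30 genes was 11049 to 11943 CPM in DMSO and 13244 to 14872 in EA, and the isoenzymes that made it up differed more than the sum did. The 30 genes took 1.10% to 1.18% of reads in DMSO libraries and 1.35% to 1.49% in EA libraries. Of the 30, 28 passed the filter on low counts. Among these, 13 were higher with EA and 9 lower at an adjusted p of 0.05 (edgeR, quasi-likelihood F test, Benjamini-Hochberg over all genes tested), and 6 were not called. These 22 called genes were 78.6% of the tested members, beside 81.0% of all 15648 genes tested, of which 40.5% were called higher and 40.5% lower. The shares of called genes among the members were thus near the background. Changes of at least 2-fold were seen upward in 8 members and downward in 5, together 46.4% of the tested members, beside 44.9% of all genes (23.4% upward and 21.5% downward). The median log2 fold change (EA over DMSO) was 0.12 for the members and 0.00 for all genes tested. The members' median was 0.042 without DMSO replicate 3, 0.053 without EA replicate 2 and -0.011 with no filter. In 23 of the 28 the EA and DMSO values did not overlap, beside 82.9% of all genes.

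**Figure D1:**
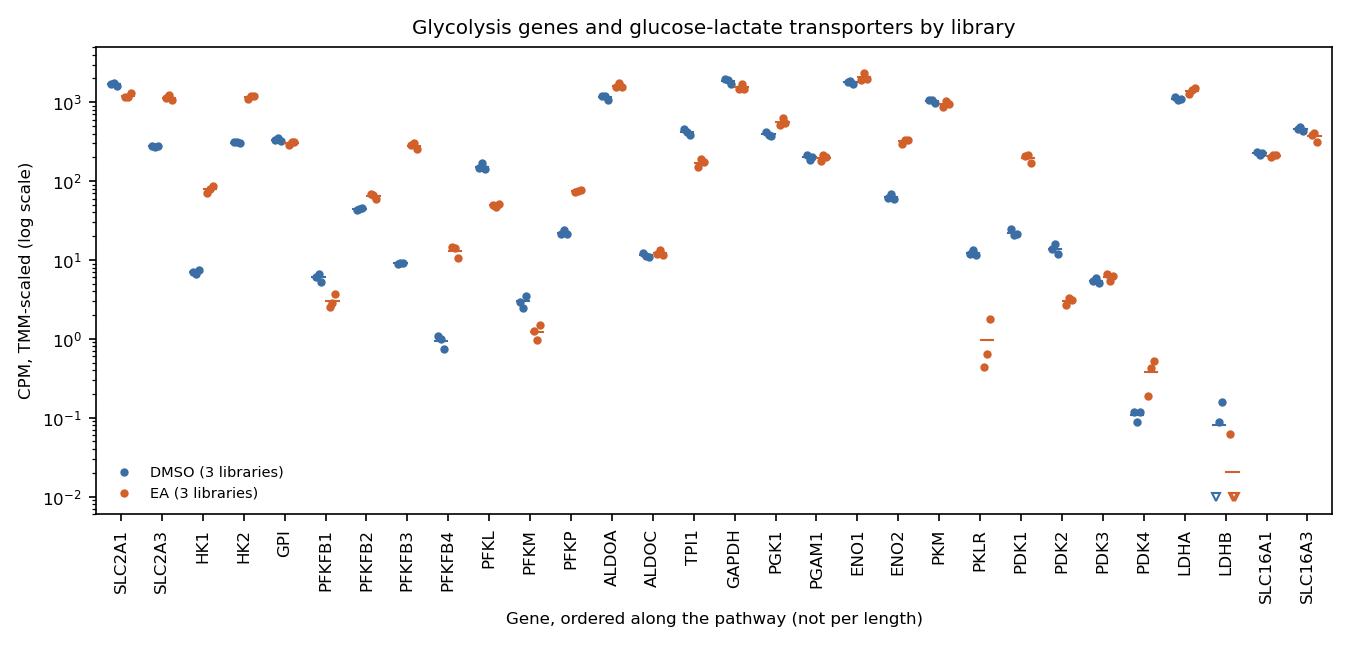
CPM on a log axis of each of the 30 genes, ordered from glucose entry to lactate exit, with 1 point per library (blue DMSO, orange EA), a bar at the mean of 3 libraries, and open triangles for libraries with 0 reads. GAPDH, ENO1, SLC2A1, ALDOA, LDHA and PKM lie between 869 and 2316 CPM in all 6 libraries, while PFKFB3 and HK1 stand apart between the groups and LDHB and PDK4 lie below 1 CPM in every library.

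The 6 genes with the most reads moved little, and the 8 large increases came from genes at lower levels in DMSO. ENO1, GAPDH, SLC2A1, ALDOA, LDHA and PKM had log2 fold changes between -0.49 and 0.49. PFKFB3, PFKFB4, HK1, PDK1, ENO2, SLC2A3, HK2 and PFKP had log2 fold changes from 1.76 to 4.97, and none of these was above 313 CPM in a DMSO library. That the 6 most read genes form a group was seen only after the values were known.

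Promoter windows are shown for 6 members because HIF core words are textbook features of glycolytic promoters, and because these 6 cover genes that rose, a gene that was not called and a gene that fell. Each window runs from 250 bases before to 50 bases after the start site given by RefSeq on GRCh38.p14, 5′ to 3′ on the gene's strand. The reads were mapped to hg19, so these positions are not those of the count table. Capitals mark every ACGTG or GCGTG on either strand, which read CACGT or CACGC when they lie on the other strand. The palindrome CACGTG counts as 2 overlapping matches. The windows are HK2 (chr2:74833877-74834176, plus strand), PFKFB3 (chr10:6144671-6144970, plus strand), PGK1 (chrX:78103998-78104297, plus strand), LDHA (chr11:18394313-18394612, plus strand), ALDOC (chr17:28576846-28577145, minus strand) and PKLR (chr1:155301389-155301688, minus strand).
HK2: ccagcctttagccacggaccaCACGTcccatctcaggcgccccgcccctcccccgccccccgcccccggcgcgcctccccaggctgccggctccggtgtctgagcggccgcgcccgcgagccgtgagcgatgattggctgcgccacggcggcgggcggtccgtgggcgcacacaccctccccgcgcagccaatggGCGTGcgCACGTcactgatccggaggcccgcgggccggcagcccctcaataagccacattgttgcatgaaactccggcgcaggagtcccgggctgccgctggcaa
PFKFB3: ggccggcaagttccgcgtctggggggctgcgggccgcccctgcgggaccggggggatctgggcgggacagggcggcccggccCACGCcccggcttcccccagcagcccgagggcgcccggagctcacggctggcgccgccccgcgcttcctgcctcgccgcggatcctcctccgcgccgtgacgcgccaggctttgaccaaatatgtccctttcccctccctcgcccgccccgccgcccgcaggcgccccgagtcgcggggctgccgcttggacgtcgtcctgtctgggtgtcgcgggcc
PGK1: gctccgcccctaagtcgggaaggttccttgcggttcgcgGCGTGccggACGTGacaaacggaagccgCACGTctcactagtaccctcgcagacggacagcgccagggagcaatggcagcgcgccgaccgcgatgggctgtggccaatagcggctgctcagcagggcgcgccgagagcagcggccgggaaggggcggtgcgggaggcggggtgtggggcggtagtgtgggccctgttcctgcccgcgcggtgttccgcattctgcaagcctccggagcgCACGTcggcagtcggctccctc
LDHA: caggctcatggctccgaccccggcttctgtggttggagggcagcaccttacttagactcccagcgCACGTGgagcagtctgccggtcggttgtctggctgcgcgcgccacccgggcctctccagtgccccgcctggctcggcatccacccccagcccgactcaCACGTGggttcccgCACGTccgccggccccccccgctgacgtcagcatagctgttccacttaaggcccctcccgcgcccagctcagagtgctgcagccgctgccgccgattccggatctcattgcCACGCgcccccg
ALDOC: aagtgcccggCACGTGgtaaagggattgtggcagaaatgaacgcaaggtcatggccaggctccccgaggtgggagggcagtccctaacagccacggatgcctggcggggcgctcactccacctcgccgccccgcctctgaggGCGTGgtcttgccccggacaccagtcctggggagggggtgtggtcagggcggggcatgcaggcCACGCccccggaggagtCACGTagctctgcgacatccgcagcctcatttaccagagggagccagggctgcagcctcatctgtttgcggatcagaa
PKLR: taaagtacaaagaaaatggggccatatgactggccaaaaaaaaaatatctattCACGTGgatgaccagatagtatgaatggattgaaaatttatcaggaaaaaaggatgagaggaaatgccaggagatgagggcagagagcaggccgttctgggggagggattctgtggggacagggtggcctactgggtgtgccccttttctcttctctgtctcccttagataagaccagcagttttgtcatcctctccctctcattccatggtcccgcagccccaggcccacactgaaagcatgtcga

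Windows were found for 27 of the 30 genes. At least 1 core word was present in 17 of the 27, beside 48.4% of all 35116 promoter windows of the same length. By call, 8 of 11 windows of genes that rose held a word, 4 of 9 of genes that fell, and 4 of 5 of genes that were not called. The windows of HK1, PFKP and PDK1, which all rose, held none. Every window printed above holds at least 1 word, so those printed do not represent the 27. LDHA held 6 matches, the first 185 bases before the start site, and PGK1 held 4, at 211, 202 and 183 bases before it and 28 after it. ALDOC, which was not called, held 5, while PFKFB3, which rose most, held 1, at 168 bases before the start. In PKLR, which fell most and encodes liver and red cell forms, the palindrome CACGTG lay 197 bases before the start site. Which of these forms that start site serves was not tested. That palindrome, which MYC and carbohydrate-response factors are also known to bind, was in 7.26% of all windows. A match is only a string of letters in this window, and genes with several start sites have other promoters that are not shown.

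Glucose enters cells through carriers of the SLC2A family. SLC2A1 (ENSG00000117394), which encodes the widely expressed carrier GLUT1, stood at 1694, 1736 and 1621 CPM in DMSO and at 1152, 1150.1 and 1295 in EA. SLC2A3 (ENSG00000059804), which encodes the high-affinity carrier GLUT3, stood at 281, 271 and 281 CPM in DMSO and 1120.1, 1231 and 1062 in EA. The groups did not overlap for either gene. SLC2A1 fell by 0.49 (log2, SE 0.07) and SLC2A3 rose 4.10-fold (log2 fold change 2.04, SE 0.07), with adjusted p of 1.17e-05 and 1.11e-12 in edgeR's test. Reads per SLC2A1 read in SLC2A3 thus went from 0.166, 0.156 and 0.173 in DMSO to 0.972, 1.07 and 0.820 in EA. Per kilobase of exon, SLC2A3 made up 11.2% ± 0.525 of the pair in DMSO and 42.1% ± 3.27 in EA (SD, n = 3). SLC2A14, a near-identical copy of SLC2A3 whose reads the counting could share, went the other way, from 12.1 ± 1.27 to 3.03 ± 0.452 CPM, 4.01-fold lower (adjusted p = 7.08e-09).

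Hexokinases trap glucose in the cell by phosphorylating it, and both listed forms rose. HK2 (ENSG00000159399), the inducible form of muscle and tumours, stood at 308, 313 and 300.3 CPM in DMSO and 1110.1, 1181 and 1187 in EA, a 3.77-fold rise (log2 fold change 1.92, SE 0.07, adjusted p = 7.64e-13 in edgeR's test). HK1 (ENSG00000156515), the form found in most tissues, went from 7.05, 6.66 and 7.47 to 69.6, 78.3 and 87.3 CPM, an 11.1-fold rise (3.47, SE 0.10, adjusted p = 1.74e-13). No EA value of either gene came near a DMSO value. HK2 still made up 93.9% ± 0.469 of the pair per kilobase with EA, against 97.8% ± 0.167 with DMSO. HKDC1, a hexokinase gene that is not a member, fell from 97.9 ± 5.06 to 64.8 ± 5.77 CPM (log2 fold change -0.59, SE 0.08). It was picked out after its value was seen.

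Glucose phosphate isomerase GPI (ENSG00000105220), which makes fructose phosphate, stood at 323 to 351 CPM in DMSO and 286 to 313 in EA without overlap, but was not called (log2 fold change -0.15, SE 0.07, adjusted p = 0.0540 in edgeR's test). It passed the threshold in DESeq2 (adjusted p = 0.0328) and in limma-voom (0.0436).

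Phosphofructokinase-1 commits sugar to glycolysis and has liver, muscle and platelet subunits. The liver subunit gene PFKL (ENSG00000141959) stood at 147, 167 and 142 CPM in DMSO and 50.3, 46.5 and 51.9 in EA. The platelet subunit gene PFKP (ENSG00000067057) stood at 21.2, 23.6 and 21.6 CPM in DMSO and 71.8, 74.8 and 78.1 in EA. These are opposite moves without overlap: PFKL fell by 1.62 on the log2 scale (SE 0.08, adjusted p = 3.83e-11 in edgeR's test) and PFKP rose 3.39-fold (1.76, SE 0.08, adjusted p = 1.51e-11). The muscle subunit gene PFKM (ENSG00000152556) was low, at 2.48 to 3.54 CPM in DMSO and 0.954 to 1.48 in EA, and fell by 1.29 on the log2 scale (SE 0.24, adjusted p = 0.000153). SENP1, which shares 8.58% of the exonic bases of PFKM, had 2209 reads in DMSO in all and 1774 in EA. PFKM itself had 223 and 66, and the part of SENP1 in them was not tested. Per kilobase of exon, PFKL held 77.3% ± 0.959 of the 3 subunits in DMSO and 26.2% ± 1.13 in EA, while PFKP held 20.8% ± 0.526 and 73.0% ± 1.24 (SD, n = 3). The summed level of the 3 genes was 167 to 193 CPM in DMSO and 122 to 131 in EA.

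The PFKFB enzymes make and break fructose 2,6-bisphosphate, the strongest known activator of phosphofructokinase-1, and PFKFB3 is known for a kinase activity far above its phosphatase activity. PFKFB3 (ENSG00000170525) had the largest rise of the 28 tested members. It stood at 8.80, 9.18 and 9.04 CPM in DMSO and 284, 306 and 256 in EA, a 31.3-fold rise (log2 fold change 4.97, SE 0.09, adjusted p = 1.35e-15 in edgeR's test). Of the 15648 genes tested, 431 had a larger log2 fold change. PFKFB4 (ENSG00000114268) went from 1.09, 1.00 and 0.747 to 14.4, 14.0 and 10.6 CPM, a 13.6-fold rise (3.77, SE 0.19). PFKFB2 (ENSG00000123836), known from heart, stood at 42.3, 43.8 and 45.1 CPM in DMSO and 68.6, 65.8 and 58.7 in EA (0.56, SE 0.08), a smaller rise without overlap. YOD1, which shares 3.09% of the exonic bases of PFKFB2, went from 3221 reads in all DMSO libraries to 7859 in all EA libraries. PFKFB2 itself had 3240 and 3455 reads, and the part of YOD1 in them was not tested. PFKFB1 (ENSG00000158571), the form known from liver, stood at 5.31 to 6.57 CPM in DMSO and 2.55 to 3.75 in EA and fell by 0.97 on the log2 scale (SE 0.18). Per kilobase, PFKFB2 led the family in DMSO with 48.6% ± 2.44 and PFKFB1 followed with 33.0% ± 2.61. The place of PFKFB1 rests on its exon length of 2058 bases, since by CPM PFKFB3 was above it in each DMSO library. With EA PFKFB3 held 82.3% ± 0.793, PFKFB2 11.3% ± 0.553 and PFKFB1 2.67% ± 0.774.

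**Figure D2:**
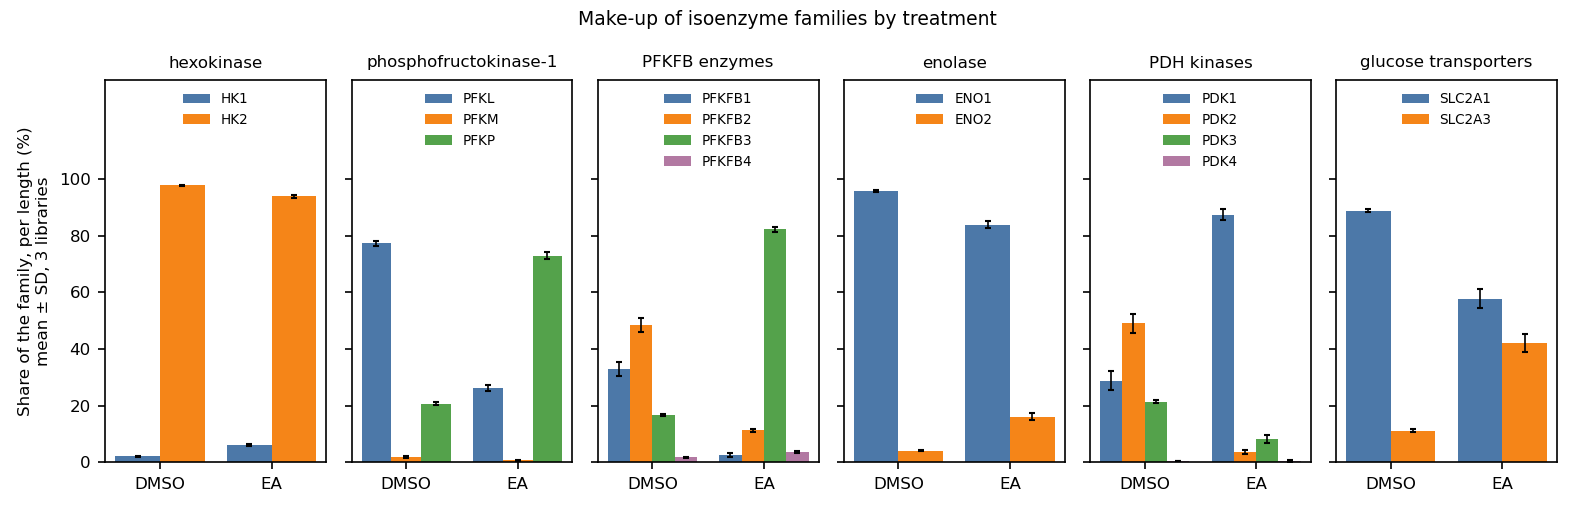
Share of each gene among the listed members of its family, from CPM per kilobase of exon (bars, mean of 3 libraries; error bars, SD), in DMSO and EA for 6 families. Genes outside the members, such as HKDC1, are not in the shares. The leading gene differed between the treatments for phosphofructokinase-1 (PFKL at 77.3% in DMSO, PFKP at 73.0% in EA), the PFKFB enzymes (PFKFB2 at 48.6%, PFKFB3 at 82.3%) and the pyruvate dehydrogenase kinases (PDK2 at 49.2%, PDK1 at 87.5%). The lead of PDK2 in DMSO rests on the exon lengths used, 14883 bases for PDK1 and 5481 for PDK2. By reads, PDK1 led in both treatments.

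Between aldolase and pyruvate kinase the summed level of the 10 genes was 6513 to 7193 CPM in DMSO and 6947 to 8145 in EA, so the groups overlapped. Aldolase splits the sugar into triose phosphates. ALDOA (ENSG00000149925), its main form outside liver, stood at 1199, 1183 and 1066 CPM in DMSO and 1545, 1735 and 1549 in EA (log2 fold change 0.49, SE 0.07, adjusted p = 2.01e-05 in edgeR's test). ALDOC (ENSG00000109107), known from brain, was not called (0.08, SE 0.11), with 11.01 to 12.3 CPM in DMSO and 11.4 to 13.3 in EA. Other annotated genes share 53.5% of the exonic bases of ALDOA and 10.1% of those of ALDOC in GENCODE 29. Those overlapping ALDOA were not found by symbol among the counted genes, and the one overlapping ALDOC had 0 reads in both groups. Reads there may still have been split or dropped, which was not tested.

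Triose phosphate isomerase TPI1 (ENSG00000111669), which interconverts the triose phosphates, was the exception among these abundant steps. It stood at 457, 422 and 381 CPM in DMSO and 149, 190.1 and 176 in EA, without overlap, and fell by 1.29 on the log2 scale (SE 0.09, adjusted p = 1.84e-08 in edgeR's test). GAPDH (ENSG00000111640), the next enzyme and a common reference gene, stood at 1946, 1888 and 1713 CPM in DMSO and 1466, 1695 and 1484 in EA. It fell by 0.26 (SE 0.08, adjusted p = 0.00680), and the 2 groups were separated by 1695 against 1713 CPM. Both decreases held under every scaling tried, though these scalings differ little. They moved the median log2 fold change of all genes by at most 0.034. The kinase PGK1 (ENSG00000102144), which makes the first ATP of the pathway, rose 1.42-fold (log2 fold change 0.51, SE 0.08), from 376 to 420.1 CPM in DMSO to 513 to 622 in EA. PGAM1 (ENSG00000171314), the mutase that follows, had the smallest estimated change of the tested members (-0.01, SE 0.08, not called), at 185 to 213 CPM in DMSO and 178 to 214 in EA. Its sign turned with RLE scaling (0.022).

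Enolase makes phosphoenolpyruvate, and its 2 listed forms changed unequally. ENO1 (ENSG00000074800), the form of most tissues, had the most reads of the members summed over the 6 libraries, though GAPDH had more in each DMSO library. It stood at 1808, 1843 and 1708 CPM in DMSO and 1920.5, 2316 and 1946 in EA. Its log2 fold change of 0.21 (SE 0.08) passed the threshold at an adjusted p of 0.0266 in edgeR's test, but not in DESeq2 (0.0728), and not without EA replicate 2 (0.185) or without DMSO replicate 1, 2 or 3 (0.0974, 0.0645 and 0.192). ENO2 (ENSG00000111674), known from neurons and from hypoxic cells, stood at 61.7, 69.0 and 58.4 CPM in DMSO and 294, 330.2 and 334 in EA. That is a 5.07-fold rise (2.34, SE 0.08, adjusted p = 7.14e-13). Per kilobase, ENO2 went from 4.16% ± 0.213 of the pair to 16.1% ± 1.27 (SD, n = 3). The antisense gene ENO1-AS1, which shares 2.39% of the exonic bases of ENO1, went from 16 reads in all DMSO libraries to 541 in all EA libraries.

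Pyruvate kinase closes glycolysis. PKM (ENSG00000067225), which encodes the muscle and tumour forms, stood at 1064, 1055 and 985 CPM in DMSO and 869, 1029.9 and 941 in EA. It was not called (log2 fold change -0.13, SE 0.07, adjusted p = 0.122 in edgeR's test), and its groups overlapped. A gene count does not tell its splice forms apart. PKLR (ENSG00000143627), which encodes the liver and red cell forms, went from 11.7, 13.3 and 11.4 CPM to 0.436, 0.636 and 1.80, and fell by 3.62 on the log2 scale (SE 0.30, adjusted p = 8.20e-07), the largest decrease of the 28. EA replicate 3 had 34 PKLR reads, against 7 and 12 in the other EA libraries, and without it the estimate was -4.49. HCN3, which shares 17.6% of the exonic bases of PKLR, also had fewer reads with EA (788 in DMSO in all, 119 in EA).

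Lactate dehydrogenase was read almost wholly from LDHA (ENSG00000134333), the subunit known for turning pyruvate into lactate. LDHA stood at 1166, 1053 and 1083 CPM in DMSO and 1264, 1427 and 1501 in EA, a modest rise without overlap (log2 fold change 0.34, SE 0.08, adjusted p = 0.000676 in edgeR's test). LDHB (ENSG00000111716), the subunit known from heart, had only 0, 2 and 4 reads with DMSO and 1, 0 and 0 with EA. It was not tested and no fold is given. In GENCODE 29 another gene, not found by symbol among the counted genes, shares 33.4% of its exonic bases. Pseudogenes of LDHB had 17 reads in EA. The part of either in the low count of LDHB was not tested.

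Pyruvate dehydrogenase kinases switch off the complex that passes pyruvate into the citric acid cycle, and their make-up turned over. PDK1 (ENSG00000152256), a textbook HIF target, stood at 24.6, 20.4 and 21.3 CPM in DMSO and 209.8, 213 and 169 in EA, an 8.92-fold rise (log2 fold change 3.16, SE 0.10, adjusted p = 5.40e-12 in edgeR's test). PDK2 (ENSG00000005882), the form known from most tissues, went from 13.8, 16.0 and 11.99 to 2.68, 3.28 and 3.12 CPM and fell by 2.19 on the log2 scale (SE 0.15, adjusted p = 2.69e-09). Neither gene had overlapping groups. PDK3 (ENSG00000067992) was not called (0.16, SE 0.15), with 5.03 to 5.96 CPM in DMSO and 5.35 to 6.72 in EA. PDK4 (ENSG00000004799), known as a fasting response gene, had 3, 2 and 3 reads in DMSO and 3, 8 and 10 in EA and was not tested. Per kilobase, PDK1 made up 28.9% ± 3.51 of the 4 kinases in DMSO and 87.5% ± 1.91 in EA, and PDK2 49.2% ± 3.31 and 3.68% ± 0.606 (SD, n = 3). By CPM, not per length, PDK1 was already above PDK2 in each DMSO library. SAMD14, which shares 38.6% of the exonic bases of PDK2, had 21 reads in DMSO in all and 22 in EA.

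Lactate leaves and enters cells through the monocarboxylate carriers. SLC16A3 (ENSG00000141526), which encodes the exporter MCT4 of glycolytic cells, stood at 456, 489 and 425 CPM in DMSO and 383, 403 and 314 in EA. It fell by 0.32 (log2, SE 0.09, adjusted p = 0.00500 in edgeR's test), with every EA value under every DMSO value. Other annotated genes, among them CSNK1D, share 6.04% of the exonic bases of SLC16A3. CSNK1D had 17226 reads in DMSO in all and 18629 in EA. SLC16A3 itself had 33754 and 19712, and the part of CSNK1D in them was not tested. SLC16A1 (ENSG00000155380), which encodes the widely expressed carrier MCT1, was not called (-0.11, SE 0.06), with 216 to 232 CPM in DMSO and 199.7 to 217 in EA. BSG, the partner that brings both carriers to the membrane, was not called either (0.06, SE 0.07). So among the 4 carriers that are members SLC2A3 rose, SLC2A1 and SLC16A3 fell and SLC16A1 was not called.

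**Figure D3:**
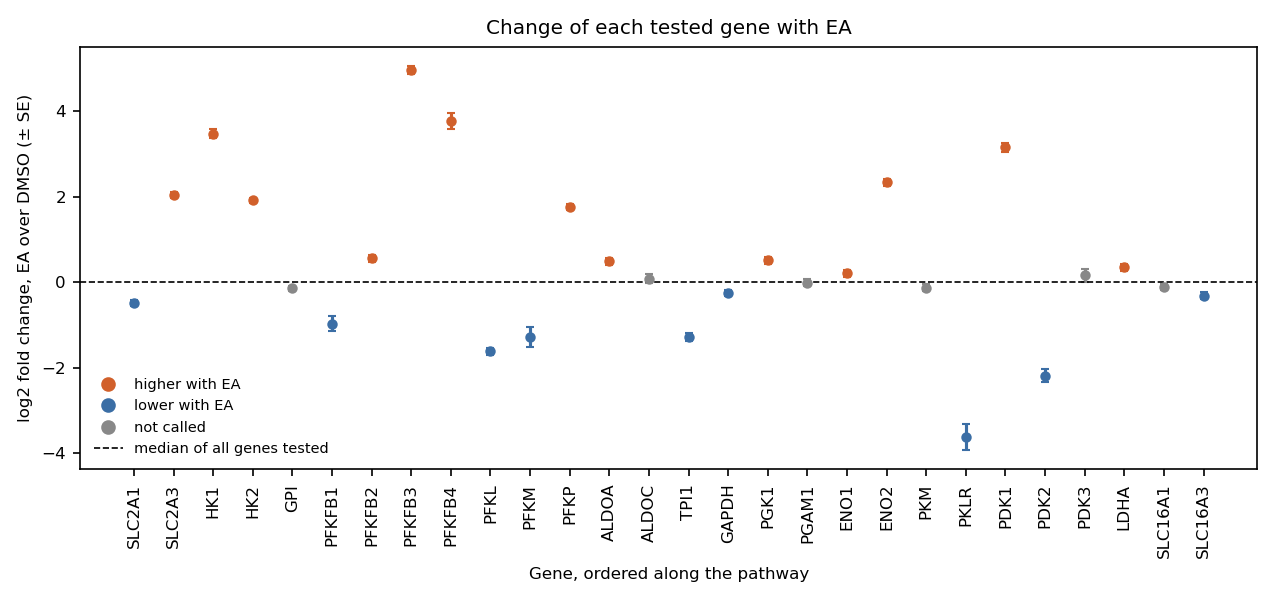
Log2 fold change (EA over DMSO) of each of the 28 tested genes with its SE, in pathway order, coloured by call. The dashed line is the median of all 15648 genes tested, at 0.00. PFKFB3 (4.97) and PKLR (-3.62) mark the ends, and GPI, ALDOC, PGAM1, PKM, PDK3 and SLC16A1 were not called.

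Ratios of isoenzyme reads within a library do not depend on how libraries are scaled. In 12 pairs with both genes tested, the largest shift was that of PDK1 over PDK2, with 1.78, 1.27 and 1.77 reads of PDK1 per PDK2 read in DMSO and 77.5, 64.3 and 53.9 in EA. PFKFB3 over PFKFB2 went from 0.208, 0.210 and 0.201 to 4.14, 4.65 and 4.35. PFKP over PFKL went from 0.144, 0.141 and 0.152 to 1.43, 1.61 and 1.504. PDK3 over PDK2 went from 0.395, 0.373 and 0.421 to 2.49, 1.62 and 2.01. In PFKFB3/PFKFB2, PFKP/PFKL and PDK3/PDK2 the gene with fewer reads in DMSO had more in EA, whereas PDK1 already exceeded PDK2 in DMSO. ENO2 over ENO1 went from 0.0341, 0.0374 and 0.0342 to 0.153, 0.143 and 0.172. The ratio of HK2 to HK1 was 43.6, 46.9 and 40.1 in DMSO and 15.9, 15.1 and 13.6 in EA. Groups did not overlap in 10 of the 12 pairs, beside 82.9% of all single genes tested, and some pairs share a gene. Each of the 10 had p = 0.10 in a two-sided exact permutation test over libraries (0.12 after Benjamini-Hochberg adjustment over the 12). The smallest p that 3 against 3 allows is 0.10. The exceptions were PFKM over PFKL (p = 0.20, exact) and SLC16A3 over SLC16A1 (p = 0.40, exact).

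**Figure D4:**
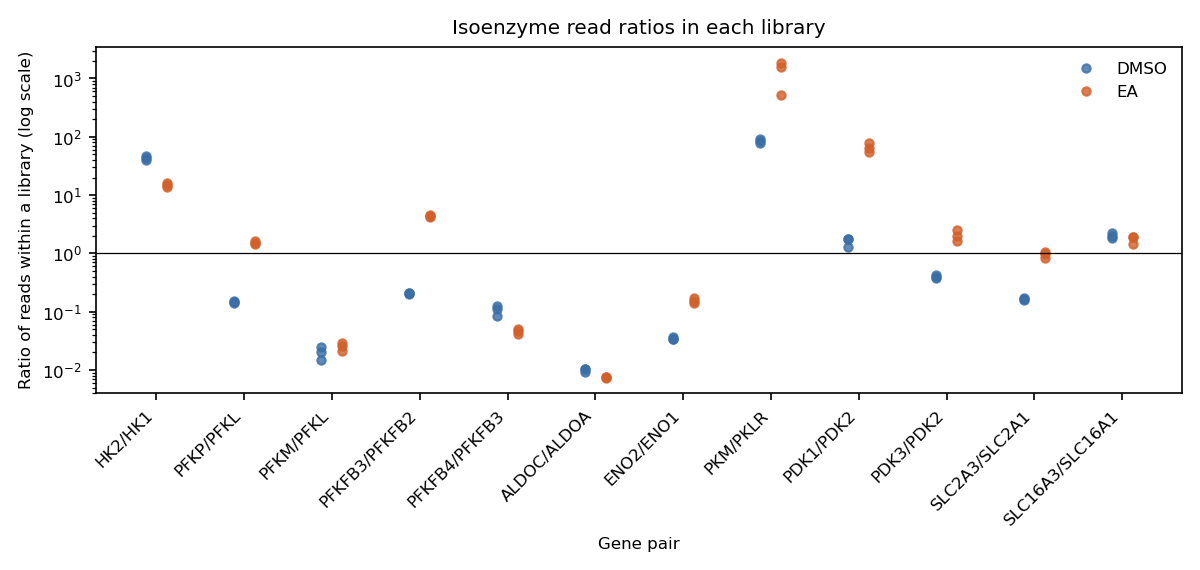
Ratio of the reads of the 2 genes of each of 12 pairs within each library, on a log axis, with 1 point per library (blue DMSO, orange EA) and a line at a ratio of 1. PFKP/PFKL, PFKFB3/PFKFB2 and PDK3/PDK2 lie below 1 in the DMSO libraries and above 1 in the EA libraries, and PFKM/PFKL and SLC16A3/SLC16A1 overlap between the groups.

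Branches, neighbours and regulators of the pathway were read from 7 further lists of genes with the same test. The share called is to be read beside the 81.0% of all genes: it was 66.7% in the list of carriers, 76.9% in that of other isoenzymes and 77.8% in that of liver genes, all under it, and above it in the other 4. All 7 genes of the pentose phosphate pathway, which draws on glucose phosphate for NADPH and ribose, were lower (median log2 fold change -1.004). Transaldolase TALDO1 fell by 1.02 (SE 0.08). Of 9 tested liver isoenzymes and gluconeogenic genes, 7 were lower and 2 not called (median -1.39). The gluconeogenic kinase PCK2 went from 215 ± 14.0 to 26.8 ± 2.50 CPM (SD, n = 3). SLC2A2, a glucose carrier gene that is not a member, went from 25.1 ± 1.34 to 0.301 ± 0.0823 CPM. That is an 82.7-fold fall (adjusted p = 1.38e-13 in edgeR's test), with only 16 reads in all EA libraries. Among 13 tested genes of other isoenzymes and side branches, 9 were lower and 1 higher (median -0.71), including PHGDH, which diverts glycolytic carbon to serine (-3.25, SE 0.10), and KHK, which phosphorylates fructose (-3.04, SE 0.11). In the list of carriers and partners, 6 of 9 tested genes were lower and 3 not called (median -1.93), among them SLC2A10 (-3.50, SE 0.16).

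Genes of pyruvate entry into mitochondria were split, with 6 of 10 lower, 3 higher and 1 not called (median -0.81). The carrier subunit MPC1 went from 61.7 ± 1.15 to 18.3 ± 2.08 CPM, and the catalytic subunit PDHA1 of pyruvate dehydrogenase from 95.6 ± 1.83 to 36.6 ± 2.81. PDP1, the phosphatase that undoes the work of the PDK enzymes, rose from 10.1 ± 0.947 to 39.3 ± 1.93 CPM (SD, n = 3). So the kinase gene PDK1 and the opposing phosphatase gene PDP1 were both higher with EA. Of 17 HIF targets that are not members, 16 were higher and 1 was not called (median 2.14), for example the transcription factor BHLHE40 with a log2 fold change of 3.19 (SE 0.08). This list overlaps one examined earlier in these samples, so its direction is not independent evidence. Of 12 tested regulators of glycolytic genes, 7 were higher and 5 lower (median 0.24). EPAS1, which encodes a HIF alpha subunit, went from 315 ± 2.47 to 709 ± 82.2 CPM, and MLXIPL, the glucose-sensing factor ChREBP of liver, from 134 ± 10.4 to 10.6 ± 2.44. MLXIP, a related gene of the same list, went the other way, from 90.8 ± 2.60 to 191 ± 12.6 CPM. HIF1A, picked out after its value was seen, stood at 278, 268 and 289 CPM in DMSO and 221, 215 and 274 in EA, so its groups overlapped. Its log2 fold change of -0.23 (SE 0.09) had an adjusted p of 0.0220 in edgeR's test, the highest of the 5 lower calls, and 4 genes of the list were lower without EA replicate 1 or without EA replicate 2. Transcript levels say nothing of the protein of these factors.

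**Figure D5:**
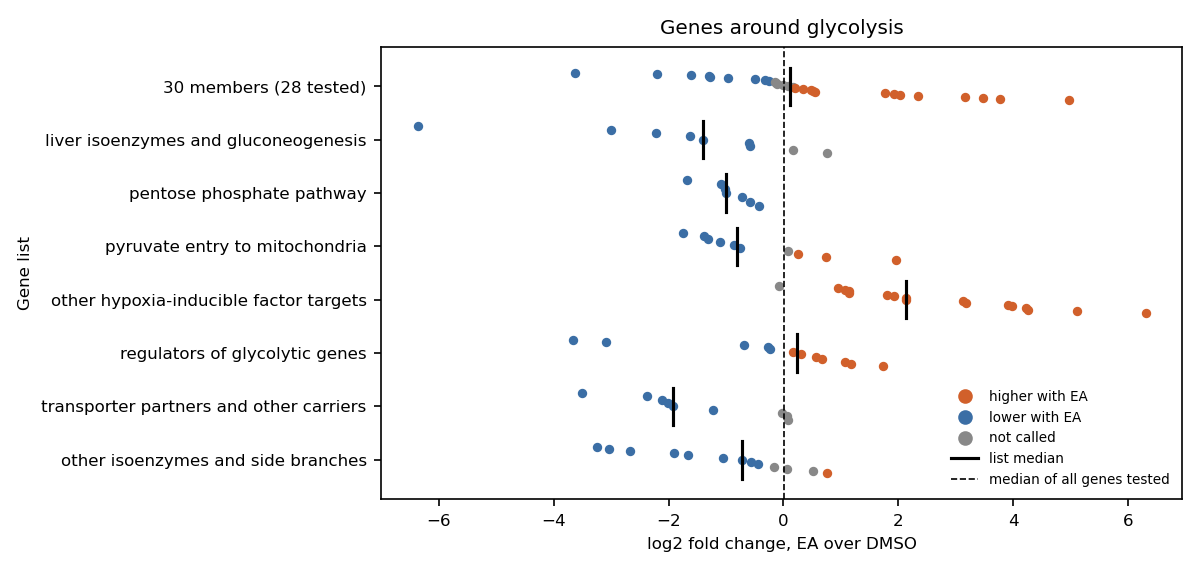
Log2 fold change (EA over DMSO) of each tested gene in the members and in 7 lists of neighbouring genes, with 1 point per gene coloured by call, a black bar at each list's median and a dashed line at the median of all genes tested. The members spread from -3.62 to 4.97 around a median of 0.12, while the pentose phosphate genes all lie below 0 and 16 of 17 further HIF targets lie above it.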

How the data were processed

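RNA of 3 EA and 3 DMSO libraries of HepG2 cells was sequenced, and the authors deposited 1 table of unnormalized read counts per gene. HTSeq 0.6.1, HISAT, hg19, cutadapt 1.9.1 and bcl2fastq 2.17.1.14 are named in the submitters' processing notes. Annotation release, strand setting and handling of ambiguous reads were not given in the sources used here. Overlapping and antisense genes cannot be told apart. Pseudogenes of 12 members were in the table, and their reads came to at most 2.69% of those of a tested member in either group.

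Counts were filtered with filterByExpr, scaled by TMM and tested with edgeR 4.0.16 (quasi-likelihood, robust, R 4.3.3), with Benjamini-Hochberg adjustment over 15648 genes. The SE is the log2 fold change over the square root of F. Exon length is the union of exons in GENCODE 29, another build than hg19. Isoenzyme ratios had 0.5 added to each count. The members, lists and tests were chosen with earlier results of these data known. Values per library are given for the 8 largest increases, the 5 largest decreases, the 3 most read members and members compared in pairs, and up to 4 called genes with the smallest p may be named from each list. TXNIP and PECAM1 were not analysed here. The test was tried on simulated data in which only a small part of the genes changed. That check does not cover data in which 81.0% of genes were called. Same-numbered libraries did not deviate together (r of -0.0839, 0.0273 and -0.0154), so replicate numbers were not used to pair libraries. Alternatives were RLE, upper-quartile and library-total scaling, DESeq2 1.42.0, limma-voom (limma 3.58.1), no filter, a filter of 1 CPM in 3 libraries, an adjusted p of 0.01, a replicate block, thinning to the smallest total, and each library left out in turn. Applying them to the lists of neighbouring genes was chosen after seeing the data. The floor of 3 reads covers counting error only, whereas each SE and SD also holds the spread between libraries. Some results are not reported here.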

Additional observations from a re-analysis of the deposited data

How the results depend on the processing

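Of the 28 tested members, 22 kept their direction and their side of the threshold under all 16 alternatives. GPI, ENO1, PKM and SLC16A1 crossed the threshold under at least 1, and PGAM1 and ALDOC, not called, changed sign. With no filter, which shifted the median of all genes by -0.13, ALDOC stood at -0.048, the median of the members at -0.011, and the calls of GPI, PKM and SLC16A1 were gained and that of ENO1 lost. PGAM1 turned to 0.022 with RLE scaling, 0.028 with the stricter filter and 0.0088 after thinning, and ran from -0.087 to 0.049 with 1 library left out (above 0 without EA replicate 1 and without DMSO replicate 1). The causes were not tested. Leaving out 1 library at a time, the median of the members ran from 0.042 (without DMSO replicate 3) to 0.12, and was 0.053 without EA replicate 2, the members called from 12 to 13 higher and 9 to 12 lower, and all genes called from 12302 to 13613. The counts with every library were 13, 9 and 12680. The 13613 came without EA replicate 3, which lay further from its group over all genes. By chi-square per degree of freedom on read counts, it lay 13.4 and 15.5 from EA replicates 1 and 2. Those libraries lay 3.89 apart, and DMSO libraries at most 4.59 apart.

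Labels number the libraries 1 to 3 in each treatment. With a replicate block 12537 genes and the same 13 higher and 9 lower members were called, and no member's call changed. The 12 isoenzyme ratios kept their direction in all 8 alternatives, and with paired differences the smallest exact p is 0.25. Pairs with LDHB or PDK4 were not run because these genes were below the filter. Depth limits LDHB and PDK4, whose levels lie near that of 3 reads.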
